A study of Homo sapiens with 4 samples.

Results

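The genes described here are 9 keratins: KRT7, KRT8, KRT18, KRT19, KRT20, KRT23, KRT80, KRT17 and KRT5. They were chosen by gene symbol in the platform's annotation, with the probe set of highest mean taken for each gene. Of the 9, 8 have a row of their own among 18417 genes with a single-gene row, and KRT17 was not analysed here because no row carries its symbol alone. The RNA came from SNU-16, a human gastric carcinoma cell line, after growth in BALB/c nude mice, which lack a functional thymus and so most T cells. SNU-16 cells implanted into the stomach wall gave a tumour there and metastases in the ovary. Cells recovered from each site in round 1 were cultured for 7 days and implanted into the stomach again, and round 2 samples are an ovarian metastasis from the ovary-derived cells and a stomach tumour from the stomach-derived cells. The data are 4 Affymetrix arrays, 1 for each of ovary round 2, ovary round 1, stomach round 2 and stomach round 1, so ovary has 2 arrays and stomach has 2. All 4 derive from SNU-16, and no array of the cells before implantation was used here. RNA was taken from pellets of the recovered cells, which may hold mouse cells of the host. The sources used here do not give the number of mice behind a sample. Round 2 lines descend from round 1 lines of the same site. The p-values of the site comparison therefore measure the spread between successive passages, and those of the round comparison the spread between sites, and either may be partly technical.

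Keratins are the intermediate filament proteins of epithelial cells. Each filament is built from obligate pairs of a type I and a type II keratin, so the cell makes both kinds together. Simple epithelia such as that of the stomach are built mainly on type II KRT8 with type I KRT18, joined by KRT19 and in many glands and ducts by type II KRT7. KRT20 is a type I keratin of intestinal and gastric surface epithelium, KRT5 is a type II keratin of basal cells of stratified epithelium, and KRT7 and KRT20 are stained together in pathology to trace the origin of a carcinoma.

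Values are log2 expression values, so a difference of 1 is 2-fold. A signal minimum of 5.64, the 30th percentile of all 33297 rows, separates genes that were tested from those that were not, and all 8 keratins with a row lay above it by their mean over the 4 arrays, among 14547 genes tested. KRT20 did so only through the arrays where it is high, since its stomach mean of 5.51 and its round 2 mean, 5.638, lie under the minimum. Epithelial markers with a row, 6 of 8 listed and among them EPCAM and CDH1, lay at 9.74 or higher on every array. Of 36 listed markers of mesothelial, ovarian granulosa and steroidogenic, fibroblast, leukocyte and endothelial cells, 35 had a row, 14 of these lay under the minimum on every array, and 20 lay above it on every array, none above 8.03. These markers are human genes, and how far they register mouse cells of the host was not tested. In bulk RNA, fewer cells of a type and less RNA per cell cannot be told apart. Both round 2 samples carry a contradictory description: stomach is said to be cultured from ovary, and ovary is called a stomach tumour in its last sentence. Groups here rest on the title and the tissue entry. If the round 2 arrays were exchanged, every round 2 site difference below would change sign, and the round differences within a site would change, while those averaged over sites would not. The averaged site differences would also change, to 0.25 for KRT20 and -0.58 for KRT7, against 0.97 and -0.37 as labelled, and 0 of the 8 keratins would have non-overlapping sites, against 3 as labelled. This exchange was tried after seeing the data, and the share of all genes with non-overlapping sites under it is not given here.

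**Figure D1:**
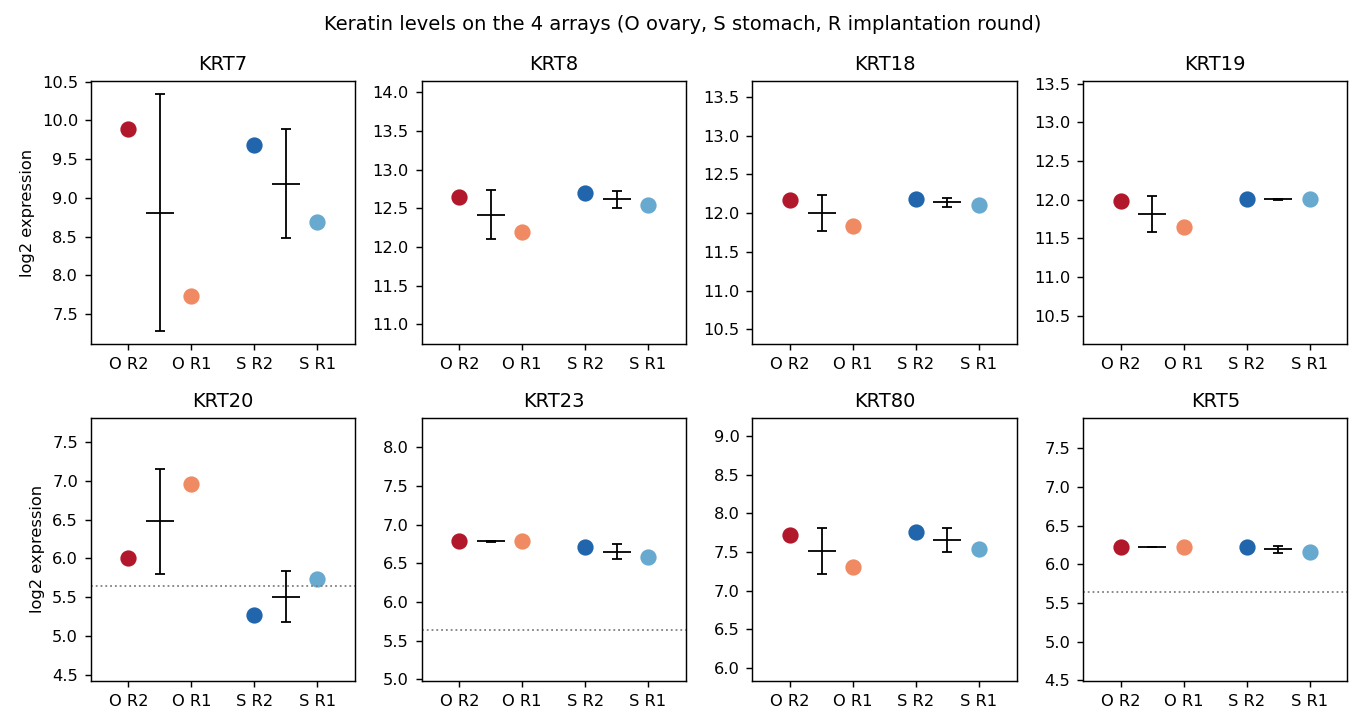
Log2 expression (vertical axis, the same span in every panel) of the 8 keratins on the 4 arrays, ovary round 2 (O R2), ovary round 1 (O R1), stomach round 2 (S R2) and stomach round 1 (S R1). Points are arrays, black bars are the mean ± SD of the 2 arrays of a site, and the dotted line is the signal minimum of 5.64. KRT7 spans 7.73 to 9.89 and KRT20 5.28 to 6.96, and the other 6 keratins span at most 0.50.

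Between rounds, 7 of the 8 keratins were higher in round 2 on the mean of both sites and KRT20 was lower, but 0 passed the test. Of the 14547 genes tested, 6603 were higher and 7929 lower. The 7 keratins include KRT23 and KRT5, which differed by only 0.07 and 0.03. The median difference of the 8 keratins was 0.18, beside -0.02 over all genes tested. KRT7 stood furthest apart, 2.99-fold higher in round 2. The comparison sets lines from round 2 implants against lines from round 1 implants. Differences were fitted with limma, a linear model with a spread shared across genes, and p-values were adjusted over all 14547 genes (Benjamini-Hochberg, threshold 0.05). The share of all genes called was 0%.

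KRT7, the type II keratin of ductal and glandular epithelium (probe set 7955613), had 9.89 in ovary and 9.68 in stomach in round 2, against 7.73 in ovary and 8.68 in stomach in round 1. Both round 2 arrays lay above both round 1 arrays, and the ovary round 1 array was the lowest of the 4. The mean difference was 1.58 ± 0.33 (limma standard error), with adjusted p = 0.287. Its size ranked 7 among the 14547 genes. By site the difference was 2.16 in ovary lines, which is 4.47-fold, and 1.00 in stomach lines, which is 2.00-fold.

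At least 1.5-fold higher in round 2 in ovary lines was 1 of the 8 keratins, KRT7, beside 2.41% of all genes. In stomach lines it was again KRT7 alone, beside 1.23%, and 0 keratins were that much lower, beside 0.935%. A difference of that size at both sites was found in 0.406% of all genes, KRT7 among them. The size of 1.5-fold was chosen with the values known, and these differences between single arrays have no test.

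KRT8, KRT18 and KRT80 shared with KRT7 the separation of the rounds and the lowest array, with smaller differences. KRT8, the type II keratin of simple epithelia (probe set 7963567), had 12.64 in ovary and 12.69 in stomach in round 2, against 12.19 in ovary and 12.54 in stomach in round 1. KRT18, its type I partner (probe set 7955637), had 12.17 and 12.18 in ovary and stomach in round 2, against 11.83 and 12.10 in round 1. For KRT80, a type II keratin found across many epithelia (probe set 7963333), the levels were 7.72 and 7.76 in ovary and stomach in round 2, against 7.30 and 7.54 in round 1. In all 3 genes the round 2 arrays lay close together and above both round 1 arrays, and the ovary round 1 array was the lowest.

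The mean differences were 0.30 ± 0.13 for KRT8 (adjusted p = 0.374 by limma), 0.21 ± 0.11 for KRT18 (adjusted p = 0.429) and 0.32 ± 0.10 for KRT80 (adjusted p = 0.306). Without adjustment, KRT7 and KRT80 had p under 0.05, 2 of 8 keratins, beside 15% of all genes in either direction and 7.64% with round 2 higher. With KRT7 these made 4 of 8 keratins with both round 2 arrays above both round 1 arrays, beside 22.2% of all genes. The number of keratins with rounds apart was 5 after quantile normalization, 5 after centring on medians and 3 with averaged probe sets. Shares over all genes in those settings are not given here, so the change in number is not a result about the keratins. The opposite order, both round 2 arrays below both round 1 arrays, was found in 0 of 8 keratins and 26.8% of all genes.

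KRT19, the smallest keratin and one without a tail domain (probe set 8015349), had 11.98 in ovary and 12.004 in stomach in round 2, against 11.65 in ovary and 12.01 in stomach in round 1. The ovary round 1 array was low and the other 3 lay close together, so the rounds overlapped. Its mean difference was 0.16 ± 0.14 (adjusted p = 0.58 by limma), made of 0.33 in ovary lines and -0.01 in stomach lines. Without the ovary round 1 array the difference was -0.02.

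KRT20, the keratin of intestinal and gastric surface epithelium (probe set 8015124), ran against the others. It had 5.9996 in ovary and 5.28 in stomach in round 2, against 6.96 in ovary and 5.74 in stomach in round 1. At each site round 2 was the lower, by 0.96 in ovary lines and 0.46 in stomach lines, yet the rounds overlapped because ovary round 2 lay above stomach round 1. The mean difference was -0.71 ± 0.47 (adjusted p = 0.496 by limma), and without the ovary round 1 array it was -0.10. Because the round 2 mean lies under the signal minimum, the size and the test are given as a description only. With the site as a replicate block the adjusted p was 0.215 for KRT20 and 0.212 for KRT7. In ovary lines KRT20 was the 1 keratin of 8 at least 1.5-fold lower in round 2, beside 0.983% of all genes.

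KRT23 and KRT5 differed least between rounds. KRT23, a type I keratin reported in several gastrointestinal tumours (probe set 8015133), had 6.78 in ovary and 6.72 in stomach in round 2, against 6.78 in ovary and 6.58 in stomach in round 1. KRT5, the basal cell keratin (probe set 7963427), had 6.22 at both sites in round 2, against 6.22 in ovary and 6.17 in stomach in round 1. The deposited KRT5 value is the same number on 3 arrays, as is found in 990 of the 33297 rows (2.97%), so its spread is not a measure of replicate error. The mean differences were 0.07 ± 0.10 for KRT23 and 0.03 ± 0.07 for KRT5, with adjusted p = 0.733 and 0.85 by limma.

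**Figure D2:**
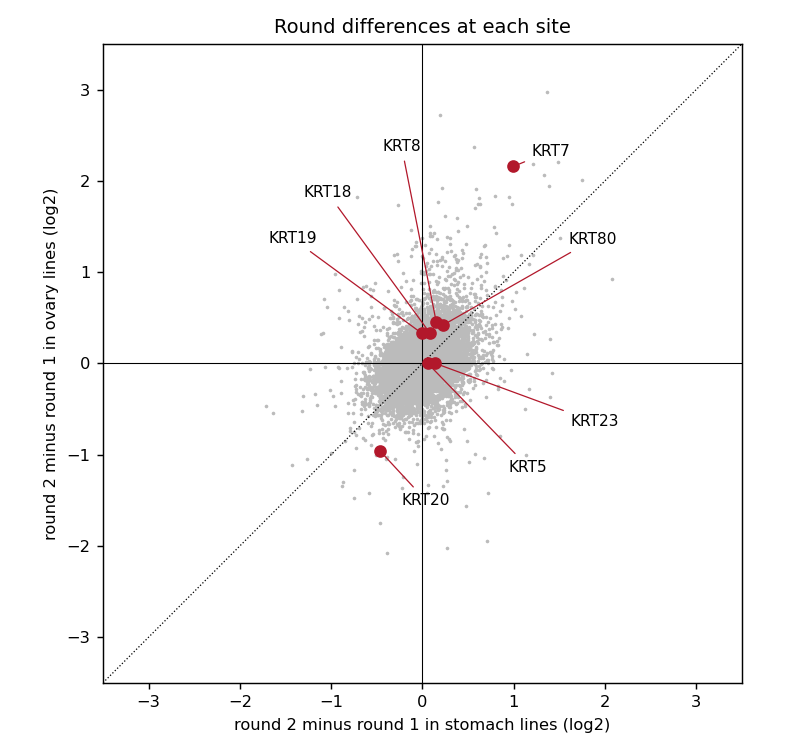
Round 2 minus round 1 in stomach lines (horizontal axis, log2) and in ovary lines (vertical axis, log2) for the 14547 genes tested (grey) and the 8 keratins (red), with the dotted line marking equal differences. KRT7 lies at 1.00 and 2.16, KRT20 at -0.46 and -0.96, and KRT8, KRT18, KRT19 and KRT80 between 0.33 and 0.45 on the ovary axis and at 0.22 or less on the stomach axis.

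Between sites, the keratins of the simple epithelial core were slightly lower in ovary, KRT20 was higher there with its stomach mean under the signal minimum, and 0 of the 8 passed the test, as did 0% of all genes. The comparison sets metastatic cells of the ovary against cells grown at the implanted site. On the mean of both rounds 5 keratins were lower in ovary (KRT7, KRT8, KRT18, KRT19 and KRT80) and 3 were higher (KRT20, KRT23 and KRT5). Of the 14547 genes tested, 7178 were lower in ovary and 7354 higher. The median difference was -0.14 for the 8 keratins and 0.00155 for all genes tested. By round it was -0.006 in round 2 and -0.25 in round 1 for the keratins.

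KRT20 levels were 5.9996 and 6.96 in ovary in round 2 and round 1, against 5.28 and 5.74 in stomach. Both ovary arrays lay above both stomach arrays. The round 2 stomach array and the stomach mean lay under the signal minimum of 5.64, so KRT20 was tested only through its ovary arrays, and the values that follow describe it and support nothing. The difference was 0.97 ± 0.36 (adjusted p = 1 by limma), with 0.72 in round 2 and 1.22 in round 1. KRT20 was the 1 keratin of 8 with unadjusted p under 0.05, beside 2.6% of all genes in either direction and 1.58% with ovary higher. It was also the 1 keratin at least 1.5-fold higher in ovary in round 2, beside 0.804% of all genes, and in round 1, beside 0.914%. In round 2, 0 keratins were that much lower in ovary, beside 0.419%. An ovary level at least 1.5-fold higher in both rounds was found in 0.0894% of all genes, KRT20 among them as labelled. With the round 2 arrays exchanged it would not be, and its mean difference would be 0.25. The fitted difference was 0.49 without the ovary round 1 array and 1.45 without the ovary round 2 array.

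The promoter of KRT20 is printed because this keratin was furthest apart between sites, and that of KRT8 because it is the type II partner in the simple epithelial pair. They are 2 of the 3 members in RefSeq's promoter table (build GRCh38.p14), the other being KRT5. Each run is the 250 bases before the RefSeq gene start, 5′ to 3′ on the gene's strand, the minus strand in both cases. Whether the transcripts of these cells begin at that start was not tested, so either run may not be the promoter in use. KRT20 lies at chr17:40885243-40885492 and KRT8 at chr12:52926470-52926719, and capitals mark matches to a motif.
KRT20: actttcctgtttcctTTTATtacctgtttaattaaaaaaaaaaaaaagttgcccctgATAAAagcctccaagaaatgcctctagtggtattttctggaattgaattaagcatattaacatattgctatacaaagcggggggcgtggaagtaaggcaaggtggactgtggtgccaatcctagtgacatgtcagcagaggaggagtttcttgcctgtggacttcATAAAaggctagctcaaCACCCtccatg
KRT8: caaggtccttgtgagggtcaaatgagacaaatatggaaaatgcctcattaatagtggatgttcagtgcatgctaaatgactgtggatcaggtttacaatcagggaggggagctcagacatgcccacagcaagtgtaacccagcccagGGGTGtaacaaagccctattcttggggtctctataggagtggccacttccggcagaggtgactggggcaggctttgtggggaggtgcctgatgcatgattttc
Motifs, chosen with the values known, were searched on both strands. They were the TATA box (TATAAA), the GC box of SP factors (GGGCGG), the box of KLF factors (CACCC), the AP-1 motif (TGANTCA) and the core letters recognised by the intestinal CDX homeodomain factors (TTTAT). The CDX letters overlap the TATA box read on the other strand. The KRT20 stretch holds the CDX letters at 3 places, from 235, 193 and 28 bases before the start, with the last 2 on the opposite strand, and the KLF box from 11 bases before it. The KRT8 stretch holds the KLF box on the opposite strand from 103 bases before the start. Of 35116 promoter stretches of the same length, 32.7% hold the CDX letters and 54.7% hold the KLF box. Exact letters of the TATA box, the GC box and the AP-1 motif are in neither stretch, and in 10.7%, 42.6% and 6.57% of all stretches in that order. The KRT20 matches from 193 and 28 bases before the start read ATAAA on the gene's strand, the TATA box without its first letter. They cannot be told apart from near matches to that box. CDX2, the intestinal homeodomain factor, is named here outside the rule for naming genes. Its levels were 8.49 and 8.53 in ovary in round 2 and round 1, against 8.48 and 8.69 in stomach, a difference of -0.07 between sites.

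KRT7 had 9.89 and 7.73 in ovary in round 2 and round 1, against 9.68 and 8.68 in stomach. The ovary arrays held both the highest and the lowest of the 4 values, so the sites overlapped. The site difference was 0.21 in round 2 and -0.95 in round 1, and the mean of -0.37 ± 0.79 had adjusted p = 1 by limma. In round 1 KRT7 was the 1 keratin of 8 at least 1.5-fold lower in ovary, beside 1.11% of all genes.

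For KRT8, KRT18, KRT19 and KRT80 the sites differed by 0.24 to 0.36 in round 1, with ovary lower, and by 0.05 or less in round 2. The mean site differences were -0.20 ± 0.18 for KRT8, -0.14 ± 0.14 for KRT18, -0.19 ± 0.14 for KRT19 and -0.14 ± 0.18 for KRT80, each with adjusted p = 1 by limma. KRT19 levels in both ovary arrays lay below both stomach arrays, 1 of 8 keratins beside 11.2% of all genes. KRT23, at 6.78 and 6.78 in ovary in round 2 and round 1, against 6.72 and 6.58 in stomach, had both ovary arrays above both stomach arrays. With KRT20 that made 2 of 8 keratins, beside 13.4% of all genes, as labelled. The KRT23 difference was 0.14 ± 0.10 and that of KRT5 0.03 ± 0.09, each with adjusted p = 1.

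**Figure D3:**
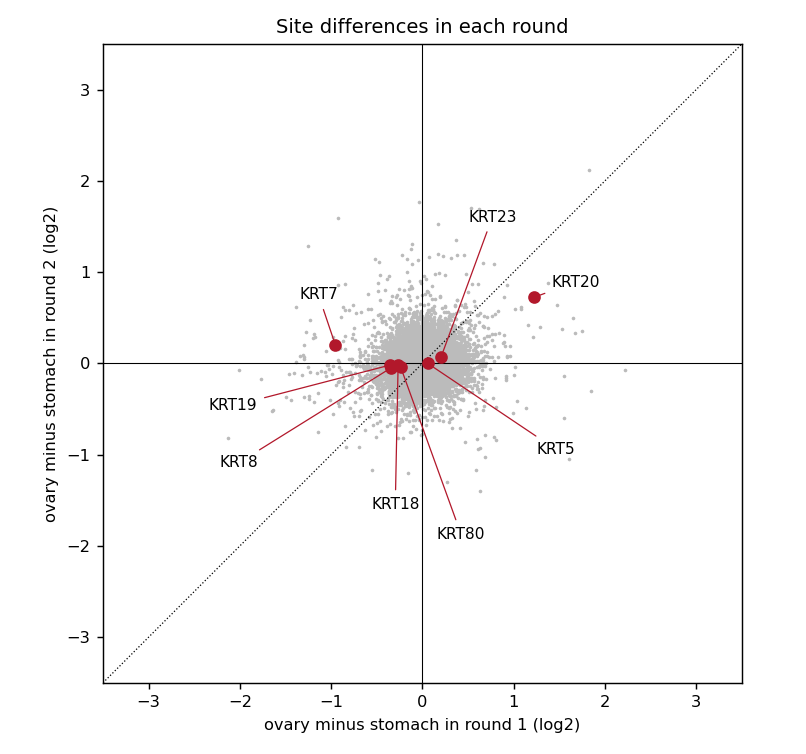
Ovary minus stomach in round 1 (horizontal axis, log2) and in round 2 (vertical axis, log2) for the 14547 genes tested (grey) and the 8 keratins (red), with the dotted line marking equal differences. KRT20 lies at 1.22 and 0.72, KRT7 at -0.95 and 0.21, and KRT8, KRT18, KRT19 and KRT80 left of 0 on the round 1 axis and near 0 on the round 2 axis.

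A low ovary round 1 array was common to 5 of the 8 keratins, a pattern noticed in the values and given without a test. It was the lowest of the 4 arrays for KRT7, KRT8, KRT18, KRT19 and KRT80, beside 25.2% of all genes. Its distance from the mean of the other 3 arrays was -1.69 for KRT7, -0.43 for KRT8, -0.37 for KRT80, -0.35 for KRT19 and -0.32 for KRT18. The other 3 keratins lay on the other side of 0, at 1.29 for KRT20, whose highest array it was, 0.09 for KRT23 and 0.02 for KRT5. Without that array the site differences became 0.70 for KRT7, 0.03 for KRT8, 0.03 for KRT18 and 0.07 for KRT80, each on the other side of 0. On that array the epithelial markers were also lowest, 5 of 6 of them, and their summed signal was 13.88 and 13.73 (log2) in ovary in round 2 and round 1, against 13.92 and 13.87 in stomach. The markers of other cells summed to 11.32 and 11.40 in ovary, against 11.32 and 11.39 in stomach. Being human genes, they are no gauge of the mouse cells of the host. The part of these markers in the keratin differences was not tested.

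KRT18 is named in 3 rows, given here as a description. KRT8 and KRT18 both have many processed pseudogenes, and signal from a near-identical copy cannot be told apart. Likeness between the rows is therefore not an independent check of the KRT18 pattern. A second row named for KRT18 alone (probe set 8154725) had 11.56 and 11.17 in ovary in round 2 and round 1, against 11.56 and 11.65 in stomach. The row that names KRT18 together with MIR622 (probe set 7969574) had 12.08 and 11.70 in ovary, against 12.11 and 12.17 in stomach. In all 3 rows the ovary round 1 array was the lowest, by 0.32 to 0.43 against the mean of the others. The stomach lines differed in sign between rows, with round 2 minus round 1 at 0.08 in the row used and at -0.09 and -0.05 in the other two.

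In the gene order of the RefSeq table, KRT7 lies next to KRT80, KRT8 next to KRT18, where the type II cluster meets its 1 type I gene, and KRT20 between KRT12 and KRT23. KRT7 and KRT80 were both higher in round 2, by 1.58 and 0.32, as were KRT8 and KRT18, by 0.30 and 0.21. KRT78, on the other side of KRT8, differed by 0.01. KRT20 and its neighbours were less alike: KRT12, the corneal keratin, differed by -0.03 between rounds and KRT23 by 0.07, beside -0.71 for KRT20. On the far side of KRT18, the translation factor gene EIF4B differed by -0.20 between rounds.

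By their values, the keratins of skin, hair and stratified epithelium did not follow the order of KRT7 and KRT8. Most of these genes lay far below KRT8 and not far above the signal minimum of 5.64. On every array the median levels of the type II and type I lists lay under the 50th percentile minimum tried as an alternative. How much of this signal is background was not tested, so the counts and medians that follow mostly describe values near the minimum. Of 22 other type II keratins, 16 had a row and 14 were tested, of which 5 were higher and 9 lower in round 2, with a median of -0.09. Both round 2 arrays lay above both round 1 arrays in 0 of the 14, beside 22.2% of all genes, and below in 7, beside 26.8%. Of 24 other type I keratins, all with a row, 14 were tested, of which 2 were higher and 12 lower, with a median of -0.11. In these, 0 had both round 2 arrays above both round 1 arrays and 6 had both below. None of the 28 passed the test in either comparison. KRT14, the type I partner of KRT5 in basal cells, was the lowest by round. Its levels were 7.00 in ovary and 7.09 in stomach in round 2, against 7.38 in ovary and 7.66 in stomach in round 1 (-0.48 ± 0.12, adjusted p = 0.287 by limma). Both round 2 arrays lay below both round 1 arrays, the reverse of KRT7. KRT38, a hair keratin, differed by -0.25, and of the type II genes KRT79 by -0.24 and KRT85 by -0.20. At the other end were KRT15 (0.10), KRT31 (0.03), KRT74 (0.10) and KRT77 (0.09). Between sites, 7 of the 14 type II and 1 of the 14 type I genes were higher in ovary, with medians of 0.003 and -0.10. KRT83 (0.13), KRT84 (0.09) and KRT12 (0.03) stood at the upper end, and KRT71 (-0.19), KRT85 (-0.19), KRT31 (-0.19) and KRT40 (-0.24) at the lower. KRT16, whose sequence is close to that of KRT17 and KRT14, had 7.10 and 7.23 in ovary in round 2 and round 1, against 7.22 and 7.22 in stomach.

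Desmosomes anchor keratin filaments at cell contacts, and their genes stood nearer to KRT7 and KRT8 by round. Of 18 desmosome and plakin genes, 14 were tested, of which 11 were higher and 3 lower in round 2 (10 and 4 after quantile normalization), with a median of 0.16. Both round 2 arrays lay above both round 1 arrays in 7 of the 14, beside 22.2% of all genes, and below in 0. The ovary round 1 array was the lowest in 10 of the 14, counting EVPL, where it tied with stomach round 2. The share over all genes was 25.2%, which also counts some ties. None passed the test. DSC2, a desmosomal cadherin, had 10.10 in ovary and 10.03 in stomach in round 2, against 9.51 in ovary and 9.65 in stomach in round 1 (0.48 ± 0.08, adjusted p = 0.287 by limma). The 2 rounds did not overlap, and the sites lay close together in each. PPL, a plakin of the desmosomal plaque, had 7.47 and 7.57 in ovary and stomach in round 2, against 7.30 and 6.99 in round 1 (0.37 ± 0.13, adjusted p = 0.316). EVPL (-0.05) and PKP3 (-0.06) were lowest, and the deposited PKP3 value is the same number on every array but ovary round 1. Between sites 5 were higher in ovary and 9 lower, with a median of -0.03, from PKP2 (0.15) and PPL (0.11) to PKP1 (-0.15) and DSP, which encodes the plaque protein desmoplakin (-0.21 ± 0.13, adjusted p = 1).

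Hemidesmosome genes numbered 4, of which 3 were tested. ITGB4 (0.22) and ITGA6 (0.18), the integrin pair that ties keratin to the basement membrane, were higher in round 2 and the tetraspanin gene CD151 (-0.34) was lower. Between sites ITGB4 differed by -0.10, ITGA6 by -0.13 and CD151 by 0.13. Of 7 keratin-binding and organising genes 6 were tested, and 5 were higher in round 2, with a median of 0.23. SFN, the 14-3-3 sigma protein of epithelial cells, had 9.45 in ovary and 9.25 in stomach in round 2, against 8.91 in ovary and 9.07 in stomach in round 1 (0.36 ± 0.11, adjusted p = 0.296 by limma). CSNK1A1, a casein kinase that with FAM83H organises keratin filaments, differed by 0.25, TCHP by 0.05 and the death domain adaptor TRADD, which binds KRT18, by -0.21. In that list 3 genes were higher and 3 lower in ovary, from TCHP (0.16) and FAM83H (0.16) to DNAJB6 (-0.06) and TRADD (-0.15).

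Of 20 listed epithelial transcription factors 17 were tested, with 10 higher and 7 lower in round 2 and a median of 0.10. GRHL1, a grainyhead factor of epithelial differentiation, differed by 0.38 ± 0.10 (adjusted p = 0.287 by limma) and KLF4 by 0.31 ± 0.20 (adjusted p = 0.492). CDX1 (-0.12) and GATA3 (-0.15) were lowest. Between sites 8 were higher in ovary and 9 lower, from KLF4 (0.35) and FOXA1 (0.16) to ELF3 (-0.12) and SP1 (-0.20). Genes of squamous differentiation split evenly by round, with 4 of 9 tested higher, CSTA (0.50) and S100A7 (0.43) at the top and IVL (-0.28) and S100A9 (-0.32) at the bottom. By site 4 of the 9 were higher, with TGM1 (0.12) and SPRR1A (0.10) at the top and S100A7 (-0.22) and CSTA (-0.33) at the bottom. Other intermediate filament genes, 12 tested of 15, were higher in round 2 in 3 and lower in 9, from NEFM (0.17) and LMNB1 (0.12) to SYNM (-0.14) and PRPH (-0.20). In that list 6 were higher in ovary, led by GFAP (0.18) and LMNB1 (0.14), with SYNM (-0.08) and NEFH (-0.12) lowest. No gene of these lists passed the test in either comparison.

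**Figure D4:**
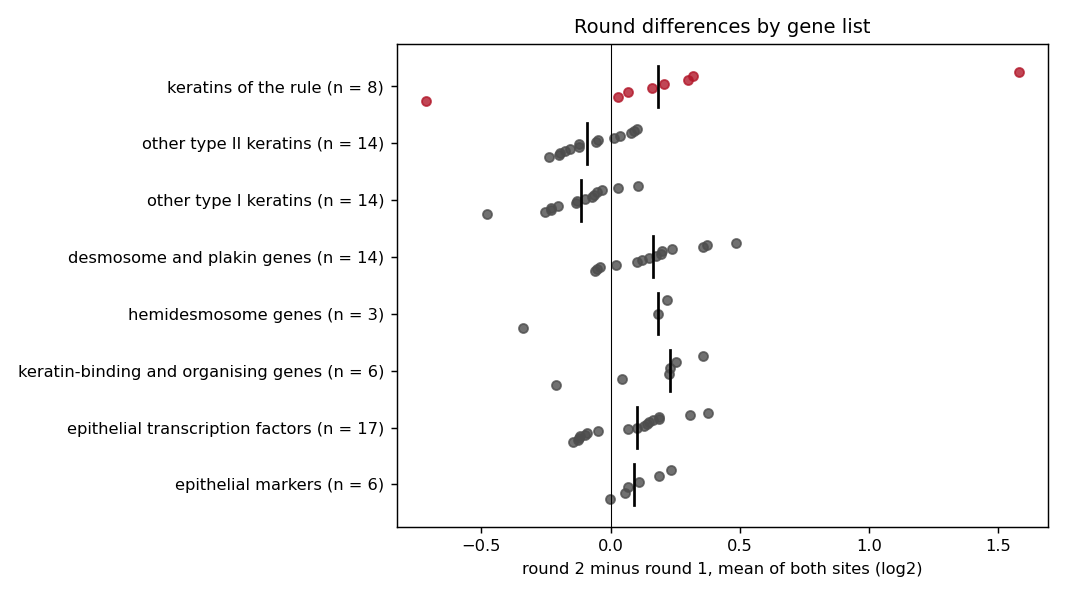
Round 2 minus round 1, averaged over both sites (horizontal axis, log2), for the tested genes of each list. Points are genes, with the 8 keratins in red, and black bars are medians, which run from -0.11 for other type I keratins to 0.23 for keratin-binding and organising genes, with 0.18 for the 8 keratins.

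Epithelial markers were higher in round 2 in 5 of 6 tested (6 of 6 after centring on medians), with a median of 0.09. CLDN3, a tight junction claudin, differed by 0.24 and ELF3 by 0.19, against 0.06 for EPCAM and -0.0006 for CLDN7. The deposited CLDN7 value is the same number on every array but ovary round 2. Its direction therefore means little, and the change to 6 of 6 rests on it. Between sites 1 of the 6 was higher in ovary, CLDN4 (0.01), beside CLDN7 (-0.0006), and ELF3 (-0.12) and EPCAM (-0.21) were lowest. Markers of other cells had small round medians, at -0.07 for mesothelial genes (4 tested), -0.14 for ovarian granulosa and steroidogenic genes (5), -0.09 for fibroblast genes (5), -0.06 for leukocyte genes (4) and -0.07 for endothelial genes (3). Their site medians were 0.06, 0.06, -0.08, -0.06 and -0.06 in the same order. MSLN, a mesothelial and carcinoma surface protein, was the mesothelial gene furthest apart, by 0.24 between rounds and 0.29 between sites, and PDGFRB the fibroblast gene furthest apart, by -0.40 and -0.31.

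Genes with the profile most like a keratin were found for the 3 keratins of widest range, KRT7, KRT20 and KRT8. Likeness was the root mean square difference between profiles over 4 arrays after subtracting each gene's mean, which with 4 points says nothing of shared control. Nearest to KRT7 were ADGRF1, an adhesion G protein-coupled receptor (0.15), the adaptor DAPP1 (0.17) and OSMR, a subunit of the oncostatin M receptor (0.19). ADGRF1 had 8.002 and 6.26 in ovary in round 2 and round 1, against 7.93 and 6.94 in stomach. Nearest to KRT20 were the centrosomal gene CEP41 (0.07), the small GTPase gene RAB38 (0.12) and VWA5B1 (0.15). CEP41 had 6.52 and 7.49 in ovary, against 5.93 and 6.40 in stomach. Nearest to KRT8 were the surface glycoprotein gene CD99 (0.013), EGFR, the epidermal growth factor receptor (0.013), and ZNF532 (0.018). EGFR had 10.71 and 10.29 in ovary, against 10.78 and 10.61 in stomach, with ovary round 1 the lowest, as for KRT8.

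**Figure D5:**
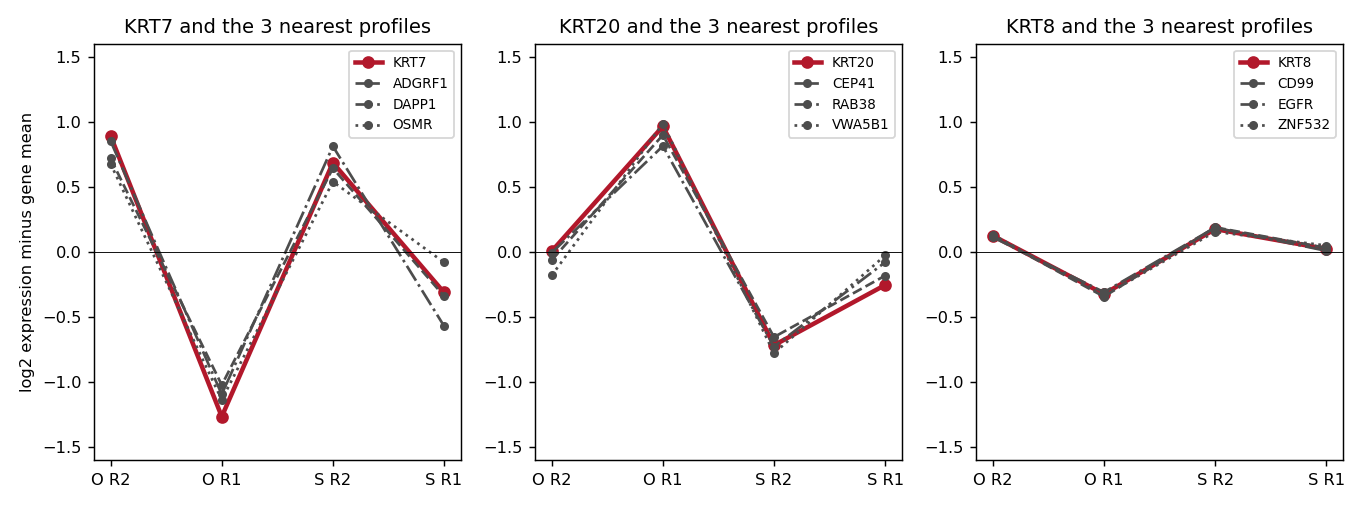
Log2 expression minus the gene's mean over the 4 arrays (vertical axis) on ovary round 2, ovary round 1, stomach round 2 and stomach round 1, for KRT7, KRT20 and KRT8 (red) and the 3 genes nearest to each (grey). Profiles of KRT7 and KRT8 are lowest on ovary round 1 and that of KRT20 is highest there. Nearest root mean square differences are 0.15 for KRT7, 0.07 for KRT20 and 0.013 for KRT8.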

How the data were processed

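RNA was measured on Affymetrix arrays, as the labels' protocols say. The authors deposited log2 expression values, 1 row per probe set. The submitters' processing notes list Affymetrix Expression Console, and the sources used here do not give the normalization. That the scale is log2 was judged from the range of 2.25 to 14.24. Of 33297 rows, 19460 carry 1 gene symbol, 1754 several (not used) and 12083 are unnamed here. RefSeq names (GRCh38.p14) were found for 19429 rows by gene identifier. The number of arrays limits precision.

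Site and round were each tested with limma 3.58.1 (lmFit and eBayes, two-sided, Benjamini-Hochberg adjustment) under R 4.3.3 on all 4 arrays, after a check on simulated data. The check recovered 27.3% of 2-fold and 92.7% of 4-fold site changes, so a gene not called may still differ 2-fold. Simulated arrays were independent of each other, and the round comparison was not simulated. Replicate numbers are rounds. Across genes, arrays of 1 round deviated from their site means with a correlation of 0.41. Since each site has 2 arrays, the 2 round pairs mirror each other and give this same value, so they are not 2 separate measures. The keratins, the 14 lists, the motifs and the 1.5-fold size were chosen with earlier results of these data known. Genes named are the keratins, the 3 profiles nearest to each of the 3 of widest range, and the 2 highest and 2 lowest tested genes of each list and comparison, given for the other-cell lists only in part. KRT16, CDH1, CDX2, EIF4B and KRT78 are named outside that rule. Alternatives were other signal minimums, quantile normalization, centring, averaged probe sets, a trended prior, the replicate block, 1 array left out at a time and, added later, an exchange of the round 2 arrays. Plots used matplotlib 3.10.9.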

Additional observations from a re-analysis of the deposited data

Results flagged for a closer look

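KRT7 had site differences of opposite sign in the 2 rounds: ovary minus stomach was 0.21 in round 2 and -0.95 in round 1, a difference of 1.16. KRT19 had round differences of opposite sign at the 2 sites: round 2 minus round 1 was 0.33 in ovary lines and -0.01 in stomach lines, a difference of 0.34. Each direction rests on 1 pair of arrays, and neither difference was tested.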

How the results depend on the processing

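Under 7 alternatives (other signal minimums, normalizations, probe sets, priors and the replicate block), all 106 keratin differences that could be fitted kept their direction and none passed the test. Most of these directions could not turn, because signal minimums, the prior and the block leave a fitted difference as it is. Averaging probe sets changed the differences of KRT18 alone, so direction was open mainly under quantile normalization and centring. The lowest adjusted p of a keratin in any setting was 0.212, for KRT7 by round with the site as a replicate block (KRT20 by site, with the round as the block, had 0.654). That replicate block changed no call, with 0 keratins called by site and 0 by round, and moved the genes with unadjusted p under 0.05 from 378 to 916 by site and from 2178 to 2358 by round. At a minimum of the 50th percentile, keratins whose sites did not overlap numbered 1 and not 3, because KRT20 and KRT23 were not tested. With the round 2 arrays exchanged between sites, added after seeing the data, they numbered 0, each mean site difference kept its direction, and that of KRT20 was 0.25. Leaving out each array gave 4 to 7 keratins with sites apart and 5 to 7 with rounds apart. With fewer arrays overlap is rarer for any gene, and the shares over all genes are not given here. These counts therefore show nothing particular to the keratins. Site differences then ranged from -1.45 to 0.70 for KRT7 (0.12 without stomach round 2), -0.42 to 0.0251 for KRT8, -0.31 to 0.0279 for KRT18, -0.36 to -0.02 for KRT19, 0.49 to 1.45 for KRT20, 0.07 to 0.20 for KRT23, 0 to 0.06 for KRT5 and -0.35 to 0.0689 for KRT80. Round differences ranged from 1.10 to 2.06 for KRT7, 0.13 to 0.47 for KRT8, 0.07 to 0.34 for KRT18, -0.0189 to 0.34 for KRT19, -1.32 to -0.10 for KRT20, -0.0324 to 0.17 for KRT23, 0 to 0.06 for KRT5 and 0.20 to 0.44 for KRT80. KRT23 turned by round without the stomach round 1 array. The turn without the ovary round 1 array in KRT7, KRT8, KRT18 and KRT80 by site and in KRT19 by round follows from its low values, and the cause of those was not tested.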
